A study of Arabidopsis thaliana with 10 samples.

Results

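The sites described here were called with the SEP3-AG complex and with SEP3 alone but not with SEP3Δtet-AG, a form of the complex that is impaired in tetramerisation. A site was a summit of SEP3-AG replicate 1, and it was selected on the peak calls of all 9 libraries. It needed a summit within 200 bp in SEP3-AG replicates 2 and 3 and in at least 2 of the 4 SEP3 lists, and no summit within 200 bp in either SEP3Δtet-AG list. Of the 8888 summits of SEP3-AG replicate 1, 277 met this rule (3.12%). They were 4.36% of the 6358 sites found in all 3 SEP3-AG lists, and all 277 lay over 200 bp from each other. Because the peak calls chose these sites, their presence and absence in the lists and their strength in the same libraries are given as description only.

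All libraries were made from naked genomic DNA of 2-week-old Arabidopsis Col-0 seedlings, captured with proteins made in vitro in a wheat germ extract, so that the DNA carried no chromatin. The groups were SEP3-AG (3 libraries, FLAG-tagged SEP3 with Myc-tagged AG), SEP3Δtet-AG (2 libraries, a SEP3 splice variant that lacks a short stretch of the K domain, with the same AG) and SEP3 (4 libraries, FLAG-tagged SEP3 alone). Both AG complexes were purified through FLAG and then Myc and SEP3 through FLAG alone, so purification and protein identity cannot be told apart in comparisons with SEP3. A single input DNA library was the control of all 9 peak lists, and the SEP3Δtet variant is largely, not wholly, dimeric.

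SEP3 (SEPALLATA3) is a cofactor of most floral organ identity proteins, and AG (AGAMOUS), like SEP3 a MADS-domain transcription factor, specifies stamens and carpels and ends the growth of the floral meristem. Such proteins bind DNA as dimers, each dimer on a CArG box, and a pair of dimers can join through the K domain into a tetramer that holds 2 boxes of the same DNA molecule. Binding of both dimers can be cooperative, so that the spacing and the quality of neighbouring boxes both matter.

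The windows that carry the main observations are shown first, on the plus strand of the TAIR10.1 nuclear assembly (RefSeq), 5′ to 3′, with 60 bp on either side of the SEP3-AG summit. The opening set holds the members at 5 regulators of flowering and reproductive development. They lie at chr2:18811791-18811911 (SOC1), chr5:24843114-24843234 (LFY), chr2:9580796-9580916 (SVP), chr1:28952937-28953057 (MAF1) and chr5:7371936-7372056 (MS1). Capitals mark the exact CArG box at SOC1 (CC, 6 A or T, GG), the CTA form at LFY (CTA, 4 A or T, TAG), the form with 7 A or T at MS1 (C, 7 A or T, GG), and at SVP and MAF1 the CArG box with the fewest changed bases within 50 bp, which differs from the consensus at 2 positions in both.
SOC1: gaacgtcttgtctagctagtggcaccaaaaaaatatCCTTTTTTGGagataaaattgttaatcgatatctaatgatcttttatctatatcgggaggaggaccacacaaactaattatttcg
LFY: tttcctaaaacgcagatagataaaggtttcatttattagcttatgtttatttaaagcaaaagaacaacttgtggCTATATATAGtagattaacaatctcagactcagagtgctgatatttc
SVP: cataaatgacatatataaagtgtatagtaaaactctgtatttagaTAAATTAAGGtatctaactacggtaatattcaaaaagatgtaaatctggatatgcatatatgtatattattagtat
MAF1: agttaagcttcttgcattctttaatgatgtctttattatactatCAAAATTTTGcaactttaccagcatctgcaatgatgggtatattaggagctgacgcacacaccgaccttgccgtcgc
MS1: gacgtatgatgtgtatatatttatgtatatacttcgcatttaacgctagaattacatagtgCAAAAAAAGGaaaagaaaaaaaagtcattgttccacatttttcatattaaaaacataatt

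The next set shows what strongly enriched members looked like when they had no exact CArG box. AT1G10650 (chr1:3526841-3526961) held the form with 7 A or T and LUP5 (chr1:24993941-24994061) the CTA form, in capitals. In SLAH1 (chr1:23008688-23008808), MSL5 (chr3:4974997-4975117), NAPRT2 (chr2:9970880-9971000) and GG1 (chr3:23417915-23418035), the capitals mark the central 10 bases of 2 matches to a SEP3-AG binding matrix whose centres were 36 or 37 bp apart.
AT1G10650: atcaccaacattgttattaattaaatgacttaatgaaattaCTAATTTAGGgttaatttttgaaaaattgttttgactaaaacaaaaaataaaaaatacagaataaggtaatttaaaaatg
LUP5: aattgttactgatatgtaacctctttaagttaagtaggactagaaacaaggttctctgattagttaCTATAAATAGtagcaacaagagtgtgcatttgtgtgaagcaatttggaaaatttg
SLAH1: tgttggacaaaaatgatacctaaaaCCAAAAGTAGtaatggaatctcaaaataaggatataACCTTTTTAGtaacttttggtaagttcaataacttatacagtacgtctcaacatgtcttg
MSL5: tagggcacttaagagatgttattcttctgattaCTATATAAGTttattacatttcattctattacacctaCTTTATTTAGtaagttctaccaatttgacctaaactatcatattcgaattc
NAPRT2: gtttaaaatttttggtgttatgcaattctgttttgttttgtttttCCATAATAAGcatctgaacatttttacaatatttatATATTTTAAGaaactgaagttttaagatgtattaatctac
GG1: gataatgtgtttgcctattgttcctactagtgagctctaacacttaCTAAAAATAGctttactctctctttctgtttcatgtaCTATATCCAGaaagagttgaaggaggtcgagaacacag

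None of the 10-base elements marked in these 6 windows was an exact CArG box. At GG1 the match on the left was itself a CTA box, and the match on the right carried C in its core. At NAPRT2 the match on the left was itself the form with 7 A or T. SLAH1 also held that form, left in lower case between its marked matches (caaaataagg). None of the 277 members combined an exact CArG box with a pair of matches at the distances taken as preferred (36, 37, 46, 47 and 57 bp).

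The members were moderately enriched sites of SEP3-AG. The authors' fold enrichment at the summit, a ratio over the local input background, ranged from 2.51 to 14.5 with a median of 5.46 in SEP3-AG replicate 1. It ranged from 2.17 to 13.6 (median 4.41) in replicate 2 and from 2.45 to 15.2 (median 6.41) in replicate 3. Kept sites, which met the same rule but had a summit in both SEP3Δtet-AG lists (n = 1115), had medians of 9.35, 8.04 and 10.4 in these libraries. The 205 sites with a summit in a single SEP3Δtet-AG list had a median of 6.15 in replicate 1, between the members and the kept sites, and the 2328 sites called with SEP3-AG alone had a median of 5.01. The members' own order was stable among the SEP3-AG libraries, with Pearson correlations of their fold enrichment of 0.963, 0.918 and 0.924 over the 277 sites, which share the input control.

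**Figure D1:**
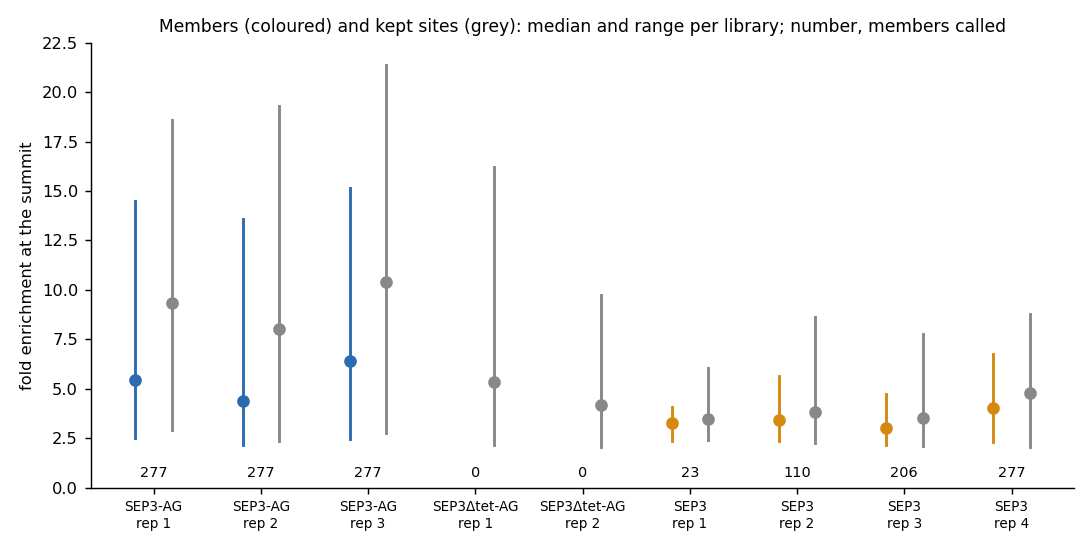
Fold enrichment at the summit (y axis) of the members (coloured) and the kept sites (grey) in each of the 9 libraries (x axis). Points are medians, lines run from the lowest to the highest site called in that library, and the numbers above the axis count the members called, which fall from 277 in every SEP3-AG list to 0 in both SEP3Δtet-AG lists.

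The SEP3 side of the rule rested largely on a single library. SEP3 replicates 1, 2, 3 and 4 called 23, 110, 206 and 277 of the members, and 157 members (56.7%) were found in replicates 3 and 4 only, 69 (24.9%) in replicates 2 and 4 only, and 12 (4.33%) in all 4 lists. Replicate 4 held 8916 summits, against 473, 1225 and 1915 in replicates 1 to 3, and the library prefix in its summit names differed from the one that all other lists shared. Without replicate 4, 50 members remained, all among the 277. Median fold enrichment of the members called was 3.29, 3.44, 3.00 and 4.01 in SEP3 replicates 1 to 4, while that of the kept sites was 3.49, 3.84, 3.53 and 4.79. Over the members, fold enrichment in SEP3-AG replicate 1 and in SEP3 replicate 4 had a correlation of 0.0855 (n = 277), and over the kept sites of 0.364 (n = 1115).

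Few members had a SEP3Δtet-AG summit just beyond the 200 bp limit of the rule. The nearest SEP3Δtet-AG summit was 201 bp to 107760 bp away, with a median of 9781 bp, and 6 members had such a summit within 400 bp and 19 within 1000 bp. Just inside the rule stood the sites near EPF2 (201 bp), AT3G29270 (225 bp) and AT2G26940 (226 bp). Just outside it stood sites near AT5G35870 (196 bp), SKS17 (189 bp), AT5G06670 (182 bp) and FD (179 bp), a bZIP partner of the florigen FT. Where sites with at least 2 SEP3 lists did have a SEP3Δtet-AG summit, it lay at a median of 8 bp, and 1257 of these 1320 sites (95.2%) had it within 50 bp. The 6 members with a summit within 400 bp (EPF2, AT3G29270, AT2G26940, AGP5, AT5G61090 and CYP71B7, the last at 363 bp) lay inside a called SEP3Δtet-AG region, so at these the loss was of a summit within 200 bp and not of the region.

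Absence from both SEP3Δtet-AG libraries was set by the rule, so the shares that follow are a description only. Of the 301 sites that met the rest of the rule and were absent from replicate 1, 277 were absent from replicate 2 (92.0%, 95% Wilson interval 88.4 to 94.6), against 458 of all 1597 sites with at least 2 SEP3 lists (28.7%). Of the 458 sites absent from replicate 2, 60.5% (55.9 to 64.9) were absent from replicate 1, against 18.8% of the 1597. The same 277 members are counted in both shares and are among the 1597 sites, so the contrasts are partly fixed by the rule. Intervals cover counting error only. Peak lists cannot separate an unbound site from a site whose binding fell short of the calling threshold. The lowest fold enrichment listed was 1.89 and 1.95 in the SEP3Δtet-AG lists, below the weakest member in every SEP3-AG list, and 2, 8 and 1 members in SEP3-AG replicates 1 to 3 were under 2.58, the higher of the 5th percentiles of these lists. Fold enrichment was lower with SEP3Δtet-AG in general, however, and the median of the kept sites was 5.32 and 4.18 in SEP3Δtet-AG replicates 1 and 2, against 8.04 to 10.4 with SEP3-AG. The members' values in the SEP3-AG lists therefore do not show how far below the SEP3Δtet-AG threshold they fell. The depth of these libraries relative to the input, recovered from the steps of the summit values, was 1.29 and 2.15, against 1.25 and 1.14 for SEP3-AG replicates 1 and 2, about the input depth for replicate 3 and 1.57 to 2.30 for SEP3. The part of depth in the absences was not tested.

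Loss was less frequent at sites in more SEP3 lists and at sites of higher SEP3-AG strength. No SEP3Δtet-AG summit was found for 86.5% of the 2690 SEP3-AG sites in no SEP3 list (85.2 to 87.8), 54.9% of the 2071 in 1 list, 26.4% of the 861 in 2 lists (23.5 to 29.4), 9.69% of the 392 in 3 lists and 3.49% of the 344 in all 4 lists (2.01 to 6.0). Among sites with at least 2 SEP3 lists, members made up 43.0% of the 263 in the weakest tertile of SEP3-AG sites (37.1 to 49.0), 20.4% of the 441 in the middle tertile and 8.29% of the 893 in the strongest (6.65 to 10.3), tertiles being set on −log10 p in SEP3-AG replicate 1. Loss occurred in every tertile, and 74 members belonged to the strongest tertile.

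**Figure D2:**
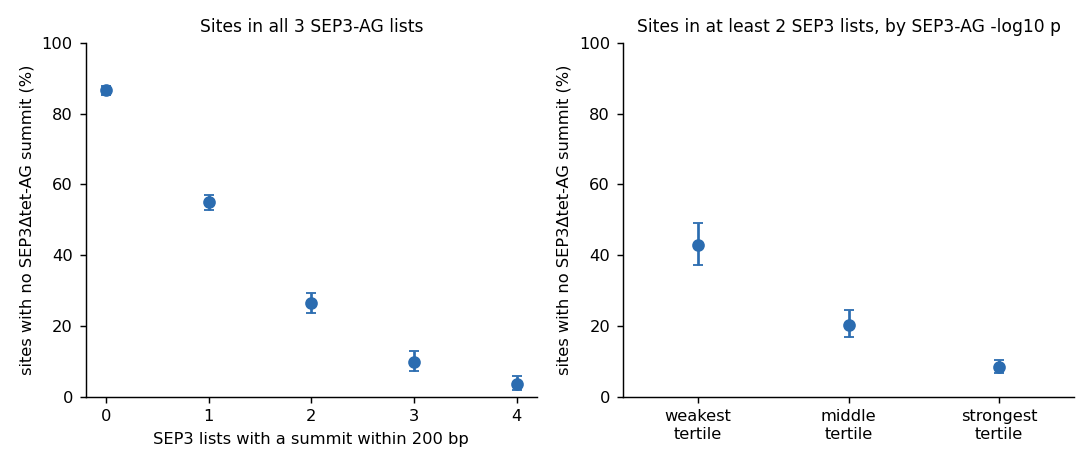
Percentage of sites with no SEP3Δtet-AG summit within 200 bp (y axes), by the number of SEP3 lists that called the site (left) and, for sites in at least 2 SEP3 lists, by tertile of −log10 p in SEP3-AG replicate 1 (right). Points are shares and lines 95% Wilson intervals, and the share falls from 86.5% to 3.49% on the left and from 43.0% to 8.29% on the right.

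Kept sites ranked above members in every library in which both were called. The probability that a kept site had a higher −log10 p than a member was 0.788, 0.779 and 0.791 in SEP3-AG replicates 1 to 3 and 0.704, 0.695, 0.770 and 0.769 in SEP3 replicates 1 to 4, where 23, 110, 206 and 277 members were ranked. The separation was 0.786 ± 0.00612 (SD, n = 3) with SEP3-AG and 0.734 ± 0.0407 (SD, n = 4) with SEP3. These values are a description with no test, because the calls in these libraries chose the sites and the SEP3 values leave out sites that a SEP3 list did not call.

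By mean rank of −log10 p over the SEP3-AG lists, the first member was the site 726 bp upstream of SOC1 (AGL20 in the annotation, AT2G45660). SOC1 is a MADS-box gene that integrates flowering signals. The fold enrichment of this site was 12.02, 10.9 and 13.6 in the SEP3-AG libraries and 3.37, 3.30, 2.96 and 5.07 in the SEP3 libraries, so it was called in all 7. By fold enrichment with SEP3-AG the member near AT3G28590 was higher, at 14.5, 13.6 and 14.7. The SOC1 member held the exact box shown above, centred 19.5 bp from the summit, and a single matrix match. SOC1 had 2 further sites in all 3 SEP3-AG lists. The site 27 bp upstream of the start (7.17, 6.93 and 8.35 with SEP3-AG) was called in both SEP3Δtet-AG lists at 6.90 and 5.19 and in 3 SEP3 lists. The site 1997 bp upstream (9.35, 8.32 and 10.8 with SEP3-AG) was called in both SEP3Δtet-AG lists at 4.0 and 3.22 and in no SEP3 list. At this promoter the site with the highest SEP3-AG enrichment was thus the only one of the 3 without a SEP3Δtet-AG summit, and the nearest such summit was 705 bp away.

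The other members at listed regulators were weaker. SVP, which encodes a MADS-domain repressor of flowering, held a member in an intron, 1209 bp downstream of its start, with 4.55, 3.37 and 5.73 in the SEP3-AG libraries and 2.83 and 5.25 in SEP3 replicates 3 and 4, so that the groups overlapped. A second SVP site, 535 bp downstream of the start, held a CTA box and was called in all 9 libraries, at 10.3, 8.83 and 10.9 with SEP3-AG and 5.60 and 5.89 with SEP3Δtet-AG. Loss thus affected the weaker of the 2 SVP sites and the stronger of the SOC1 sites.

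At LFY, which encodes the regulator that turns shoot meristems into floral ones, the member lay 1074 bp upstream of the start and was among the weakest, ranked 270 of 277. Its fold enrichment was 2.72, 3.19 and 3.40 with SEP3-AG and 2.87, 3.48 and 4.47 in SEP3 replicates 1, 3 and 4, so these groups overlapped too. It was the only site of LFY in all 3 SEP3-AG lists, the nearest SEP3Δtet-AG summit was 74196 bp away, and the gene with the nearest start was GUT1. The LFY member showed no CArG box with fewer than 2 changes but an exact CTA box 18.5 bp from the summit.

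MS1, which encodes a PHD-finger regulator of tapetum and pollen development, held a member 1701 bp upstream of its start at 6.66, 5.76 and 6.73 with SEP3-AG and at 2.42 and 3.73 in SEP3 replicates 3 and 4. The gene with the start nearest to this member was AT5G22270, 1263 bp away. A stronger MS1 site 798 bp downstream of the start (10.4, 9.07 and 11.6) was called with SEP3Δtet-AG at 8.28 and 4.86. The member within 3000 bp upstream of MAF1, a MADS-domain repressor of flowering, lay in an intron of AT1G77060, at 4.55, 3.70 and 4.39 with SEP3-AG and 3.43 and 3.56 in SEP3 replicates 2 and 4. The SEP3-AG and SEP3 values did not overlap for MS1 or MAF1, but each was called in only 2 SEP3 lists. At MAF1 the closest values were 3.70 with SEP3-AG and 3.56 with SEP3.

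**Figure D3:**
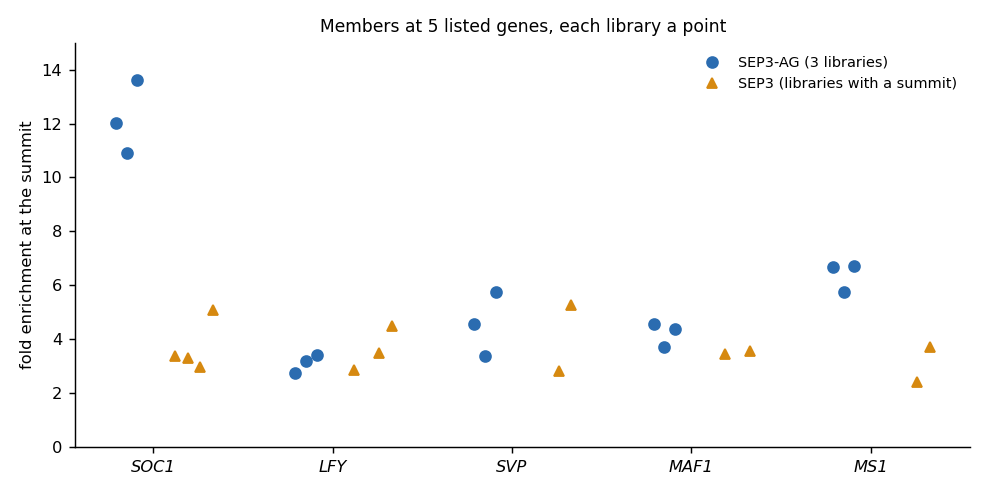
Fold enrichment at the summit (y axis) of the members at 5 listed genes (x axis), with each SEP3-AG library as a blue circle and each SEP3 library that called the site as an orange triangle. No SEP3Δtet-AG library called any of them. The SOC1 member stands at 10.9 to 13.6 with SEP3-AG, above the other 4, and at LFY and SVP the groups overlap.

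The other members of high rank lay near genes outside the lists. Among the 12 members with the best mean rank over the SEP3-AG lists, the site near AT3G28590 (uncharacterised) reached 14.5, 13.6 and 14.7 with SEP3-AG and 3.29 and 3.26 in SEP3 replicates 3 and 4. The site near TET12, which encodes a tetraspanin, reached 11.5, 12.2 and 15.2 with SEP3-AG and 3.08 and 4.26 in SEP3 replicates 3 and 4. The site in an intron 726 bp downstream of the start of GG1, a G-protein gamma subunit, reached 11.1, 11.3 and 12.2 with SEP3-AG and 3.61 and 3.47 in SEP3 replicates 2 and 4. These sites were picked for their rank with SEP3-AG, and kept sites too had higher fold enrichment with SEP3-AG (mean of the library medians 9.26 ± 1.18, SD, n = 3) than with SEP3 (3.91 ± 0.605, SD, n = 4).

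The SLAH1 site, 138 bp upstream of the start of an anion channel homologue, reached 10.8, 10.1 and 12.3 with SEP3-AG and 3.39 and 3.90 in SEP3 replicates 3 and 4, with its nearest SEP3Δtet-AG summit 24641 bp away. The site 1906 bp from the start of EPF2, which encodes a peptide that limits stomatal number, reached 10.5, 11.5 and 10.8 with SEP3-AG and 2.23 and 2.37 in SEP3 replicates 3 and 4. The EPF2 site just passed the distance rule, at 201 bp, and lay inside a called SEP3Δtet-AG region. The remaining best-ranked members lay near AT5G42210, AT1G10650, LUP5 (a triterpene synthase), MEE44, AT5G20390 and AT1G61795, with fold enrichments of 9.56 to 13.8 with SEP3-AG.

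Of the 12 members called in all 4 SEP3 lists, the best ranked after SOC1 were near GSA2, an enzyme of chlorophyll precursor synthesis (10.7, 10.4 and 11.2 with SEP3-AG and 3.95, 3.02, 3.31 and 4.99 with SEP3), and AT3G44261, annotated as a retrotransposon polyprotein (8.32, 7.63 and 11.5, and 3.29, 3.30, 3.801 and 4.89). CSTF77, a factor of mRNA 3′ end processing, had 8.75, 6.89 and 7.05 with SEP3-AG and 2.92, 4.08, 3.49 and 3.78 with SEP3. AT1G66190 and AT5G37540 completed these with 6.56 to 8.44 in the SEP3-AG libraries and 2.98 to 5.05 in the SEP3 libraries. SEP3-AG values exceeded all SEP3 values at each of these sites, which were picked for high SEP3-AG rank. Kept sites too had higher medians with SEP3-AG (8.04 to 10.4) than with SEP3 (3.49 to 4.79). The share of all members with such a separation was not counted.

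Exact CArG boxes were rare at the members. Within 50 bp of the summit 16 of 277 held CC, 6 A or T and GG (5.78%, 3.59 to 9.18), against 206 of 1115 kept sites (18.5%, 16.3 to 20.9), 20 of the 205 sites with a single SEP3Δtet-AG list (9.76%) and 144 of the 2328 sites called with SEP3-AG alone (6.19%). The difference from kept sites was -12.7 percentage points (95% Newcombe interval -15.9 to -8.67), and from sites called with SEP3-AG alone -0.41 points (-2.84 to 3.11). In windows 1000 bp to either side of the members that lay clear of any summit, 1 of 484 held such a box (0.207%). Of all 6358 sites in 3 SEP3-AG lists, members included, 9.77% held one. Without SEP3 replicate 4 the shares were 14.0% of 50 members (6.95 to 26.2) and 22.6% of 633 kept sites, and the interval of their difference reached from -16.4 to 3.98 points, so it included 0. Fewer sites and a different make-up of the members cannot be told apart there. These 50 members are those in at least 3 SEP3 lists, and of the 227 members in 2 SEP3 lists 9 held an exact box (3.96%, 2.10 to 7.36). Of the kept sites, 482 were in 2 SEP3 lists and 633 in at least 3, so the classes also differed in their SEP3 lists. The part of this make-up in the difference from kept sites was not tested. Leaving out any of the other 8 libraries left the difference between -12.9 and -10.5 points.

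The rarity of exact boxes was not confined to weak sites. By tertile of SEP3-AG strength, exact boxes were found at 5.31% of 113, 6.67% of 90 and 5.41% of 74 members, from weakest to strongest, and at 18.2%, 17.5% and 18.9% of the kept sites. The most frequent exact box of the members was CCAAAAATGG or its complement, at 8 of the 16, and at 32 of the 206 kept sites. Among the 16 were the sites of SOC1, WRKY30 and CRY2, the blue-light receptor that promotes flowering (the last 2 named after their values were seen).

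Boxes with small changes were more common. A CArG box with at most 1 changed base lay within 50 bp of 149 members (53.8%, 47.9 to 59.6), of 69.1% of kept sites, of 46.2% of sites called with SEP3-AG alone and of 10.3% of the flanking windows. Over all 6358 sites in 3 SEP3-AG lists the share was 55.1%, within the members' interval. Of the 133 members whose best box had exactly 1 change, 53 had it at the outermost position of the box, 69 at the next and 5, 5 and 1 at the following positions, which form the core of A and T. The changed base was thus mostly in the CC or GG part. Positions were not counted for kept sites or flanking windows, so this cannot be called particular to the members. The best box was sought only within 50 bp of the summit, and the nearest was taken among equals, so its distance is partly fixed by the search. Its median distance was 13.5 bp over all members and 11.5 bp over the kept sites. The exact boxes of the 16 members lay at a median of 22 bp, against 11.5 bp for those of 206 kept sites. No distance was computed for flanking windows.

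A form with a longer A and T core, CC, 7 A or T and G, or its reverse, was found exactly at 70 members (25.3%, 20.5 to 30.7), against 32.8% of kept sites, 16.1% of sites called with SEP3-AG alone and 2.89% of flanking windows. It counts as a CArG box with 1 change in the shares above. Among all sites in 3 SEP3-AG lists 23.4% held it, a share within the members' interval. The difference from kept sites was -7.55 points (-13.1 to -1.49), and without SEP3Δtet-AG replicate 1 it was -2.005 points (-6.91 to 3.11). Within the members its share was 17.7% in the weakest tertile (11.8 to 25.8), 21.1% in the middle and 41.9% in the strongest (31.3 to 53.3). Of the 12 best-ranked members 6 held this form, 2 the CTA form and 1, SOC1, the exact CArG box. AT3G28590, AT5G42210 and MEE44, the other 3 of the 12, held none of these forms.

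The CTA form was as frequent in members as in kept sites within the error, and more frequent than in sites called with SEP3-AG alone. It was found at 35 members (12.6%, 9.23 to 17.1), 129 kept sites (11.6%, 9.82 to 13.6) and 25 of the sites with a single SEP3Δtet-AG list (12.2%), but at 52 sites called with SEP3-AG alone (2.23%, 1.71 to 2.92) and 1 flanking window (0.207%). The difference between members and kept sites was 1.07 points (-2.89 to 5.83) and that between members and sites called with SEP3-AG alone 10.4 points (6.93 to 14.9). Sites with no SEP3Δtet-AG summit and a summit in 1 SEP3 list stood between these, at 7.30% of 1137 (5.93 to 8.96). Of all sites in 3 SEP3-AG lists 6.21% held the CTA form. In the weakest tertile of SEP3-AG strength the CTA form was at 15.04% of members (9.61 to 22.8) and 1.78% of sites called with SEP3-AG alone (1.14 to 2.76). In the middle tertile it was at 13.3% (7.79 to 21.9) and 2.47% (1.62 to 3.74). In the strongest tertile it was at 8.11% (3.77 to 16.6) and 2.94% (1.69 to 5.07), and there the intervals overlapped. Without SEP3 replicate 4 the share was 16% of 50 members and 11.2% of kept sites, and without SEP3 replicate 3 it was 18.3% of 120 members and 10.2% of kept sites, a difference of 8.13 points (1.78 to 16.2).

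**Figure D4:**
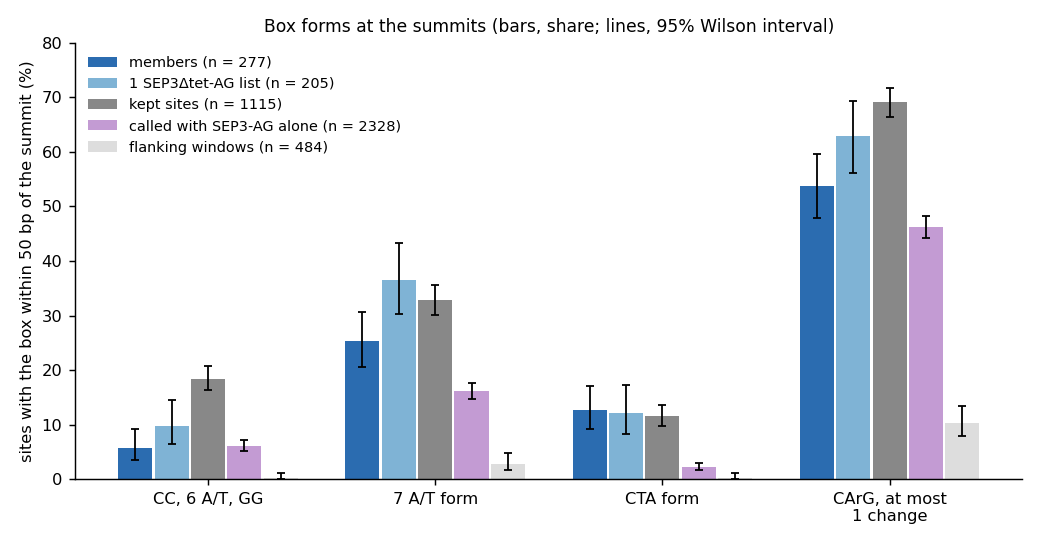
Percentage of sites (y axis) with each box form within 50 bp of the summit (x axis: exact CArG box, form with 7 A or T, CTA form, and CArG box with at most 1 change), for members, sites with a summit in 1 SEP3Δtet-AG list, kept sites, sites called with SEP3-AG alone, and windows 1000 bp from the members. Bars are shares and lines 95% Wilson intervals. Members (5.78%) lie below kept sites (18.5%) for the exact box and beside them for the CTA form (12.6% and 11.6%).

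**Figure D5:**
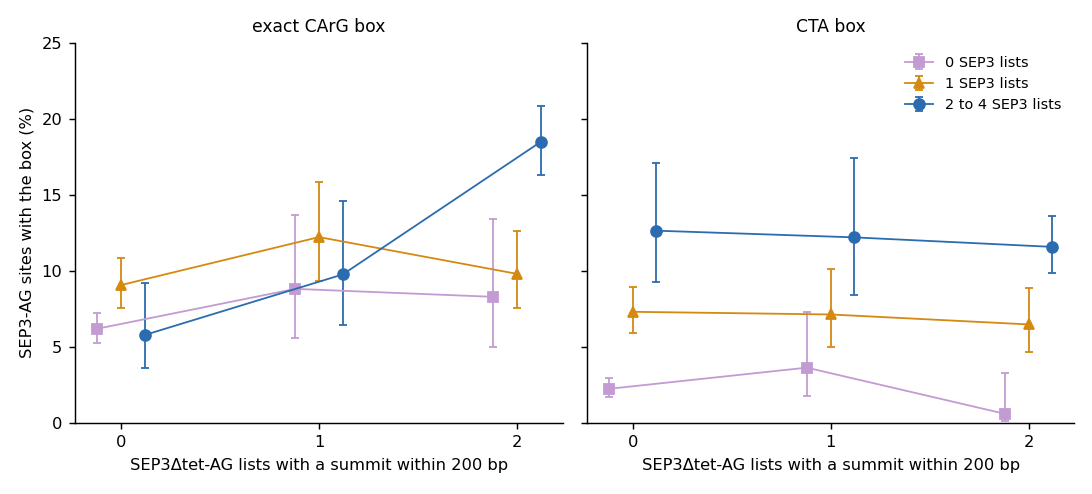
Percentage of sites in all 3 SEP3-AG lists that held an exact CArG box (left) or a CTA box (right) within 50 bp, by the number of SEP3Δtet-AG lists (x axis) and of SEP3 lists (symbols) that called the site, with 95% Wilson intervals. Members are the blue points at 0 SEP3Δtet-AG lists. With at least 2 SEP3 lists, the exact box rises from 5.78% over 9.76% to 18.5% while the CTA box stays at 12.6%, 12.2% and 11.6%.

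Members held fewer binding-site matches than kept sites. With a palindromic 16-bp matrix learned from SEP3-AG sites, at a threshold met once per 1000 bp of flanking DNA, 85.6% of members had at least 1 match within 100 bp of the summit (80.9 to 89.2) and 31.4% at least 2 (26.2 to 37.1). Kept sites had 97.9% and 53.5%, and sites called with SEP3-AG alone 82.6% and 26.3%. The members' share with 2 matches was 22.0 points below that of kept sites (interval of the difference -28.0 to -15.6). The best matrix score within 50 bp had a median of 8.94 (log2 units) in members, 11.5 in sites with a single SEP3Δtet-AG list, 12.4 in kept sites, 8.50 in sites called with SEP3-AG alone and 2.33 in flanking windows. By matrix score the members resembled the sites called with SEP3-AG alone, and the median of their strongest tertile, 8.36, was below that of their weakest, 9.18, whereas the kept sites' medians were 10.6, 11.7 and 12.7 from weakest to strongest. The matrix was learned from the strongest SEP3-AG sites, and 753 of the 1115 kept sites but 74 of the 277 members belonged to the strongest tertile. The part of these training sites in the contrasts of scores and matches was not tested.

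Pairs of matches at the preferred distances were infrequent at the members. Such pairs were found at 9 of 277 (3.25%, 1.72 to 6.06), against 6 and 5 members when all distances were taken 5 bp shorter or longer. The share was 4.66% in kept sites and 6.62% in sites called with SEP3-AG alone, where the shifted distances gave 1.16% and 1.25%. Over all sites in 3 SEP3-AG lists it was 5.99%, within the members' interval. In kept sites both shifts gave 5.38%, above the share at the preferred distances. Of the windows with at least 2 matches, a preferred pair was found in 10.3% of 87 members (5.54 to 18.5), 8.72% of 596 kept sites (6.72 to 11.3) and 25.1% of 613 sites called with SEP3-AG alone (21.9 to 28.7). The preferred distances come from the study and from SEP3-AG libraries that also define these sites, so these shares are a description. Of the 9 members with such pairs, 6 belonged to the strongest tertile (8.11% of 74, 3.77 to 16.6), where sites called with SEP3-AG alone had 16.7% of 408. They were the sites near EPF2 (47 bp), GG1 (37 bp), SLAH1 (36 bp), MSL5 (37 bp), NAPRT2 (36 bp), AT5G11470 (57 bp), AT3G24750 (36 bp), LSH3 (37 bp) and AT3G30520 (57 bp), and all but EPF2, GG1 and SLAH1 were named after their values were seen. Without SEP3 replicate 4 no such pair was left among 50 members.

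Members were spread over promoters, introns and intergenic DNA. Of the 277 summits 93 (33.6%, 28.3 to 39.3) lay within 1000 bp upstream of the start of a protein-coding gene, which covers 21.3% of the genome, against 37.1% of kept sites and 36.7% of all sites in 3 SEP3-AG lists. Sites with a single SEP3Δtet-AG list had 49.8%, and the members were 16.2 points below them (interval of the difference -24.8 to -7.29). When each summit was given a single place, genes first, 62 lay in introns (22.4%, 17.9 to 27.6, with 15.2% of the genome), 9 in coding exons (3.25%, with 28.3% of the genome), 18 in 5′ UTRs, 16 in 3′ UTRs, 83 in promoters outside genes (29.96%, with 14.0% of the genome) and 89 elsewhere (32.1%, with 31.9% of the genome). Introns held 5.43 points more of the members than of the kept sites (0.36 to 11.1), and coding exons 5.21 points fewer than of the sites called with SEP3-AG alone (interval -7.16 to -2.21). Promoters outside genes held 13.5 points fewer of the members than of the sites with a single SEP3Δtet-AG list (interval -22.0 to -4.77). For the other places the interval of the difference from kept sites included 0. Base composition was similar, with a median GC content of 28.7% in members and 27.7% in kept sites in the 101 bp around the summit. The 5 chromosomes held 72, 36, 54, 46 and 69 members, 3.39% to 4.93% of their sites in all 3 SEP3-AG lists.

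The summit lay a median of 992 bp from the nearest protein-coding gene start, upstream of it at 152 members and downstream at 125. Counting the region from 3000 bp upstream of a gene's start to 1000 bp past its end, the members reached 411 of 27444 protein-coding genes (1.50%), 11 of them with 2 members, and 27 members reached no gene. Of these 411 genes, 80 (19.5%, 15.9 to 23.6) also had a SEP3Δtet-AG summit in the same region, as had 3897 of the 8069 genes with any site in all 3 SEP3-AG lists (48.3%), a contrast that the rule partly fixes. Over all protein-coding genes the share was 17.3% (4741 of 27444), within the interval of the members' genes. The 331 genes with a member and no SEP3Δtet-AG summit are thus near the background share.

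Among 98 listed genes 5 had a member (5.10%, against 1.50% of all protein-coding genes). A site in all 3 SEP3-AG lists was found at 53 of them (29.4% of all protein-coding genes had one). A SEP3Δtet-AG summit was found at 42 (17.3% of all). None of the 17 floral MADS-box genes had a member, while 11 had a site in all 3 SEP3-AG lists and 9 a SEP3Δtet-AG summit. Of 21 other MADS-box genes of the MIKC type 3 had a member (SOC1, SVP and MAF1), of 20 floral meristem and flowering regulators 1 (LFY), and of 22 carpel, ovule and stamen regulators 1 (MS1). None of 7 boundary and shoot meristem regulators and none of 11 gibberellin and auxin genes had a member. The lists were drawn up with earlier results of these data known, so the counts are a description.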

How the data were processed

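The authors trimmed and aligned reads to TAIR10 without the organelle genomes, discarded reads with several positions or many mismatches, removed duplicates, and ran the peak caller separately for every library with the input DNA as control. The authors also made consensus peaks over replicates, which were not used here, and the lists used here are those of single libraries. To separate shared from specific peaks the authors compared normalised read coverage, because they found that peak calls alone did this poorly. The members here rest on peak calls alone. The submitters' processing notes name bcl2fastq 2.17, Bowtie2, SAMtools and MACS2. The deposited lists gave, per summit, a fold enrichment (a ratio over local background) and −log10 of the p-value and q-value, the lowest −log10 q being 4.01. Reads were not used here, and no batch label was given. Summits were read 1-based on the RefSeq TAIR10.1 assembly, whose 5 chromosomes contain all of them. They were matched at 200 bp. The members and gene lists were chosen with earlier results of these data known. Boxes were sought on both strands within 50 bp of the summit. The matrix was learned in 30 rounds from 600 top sites, without the chromosome being scanned. Pairs were 2 matches within 100 bp of the summit. The exact forms exclude each other, but the form with 7 A or T is a CArG box with 1 change, and the CTA form one with 2. Shares carry 95% Wilson intervals, and differences Newcombe intervals, which treat sites as independent and cover counting error only. Libraries of a group are not known to come from separate protein preparations. The planned permutation test of how kept sites and members ranked is not reported as a test, since the calls behind the ranks chose the sites.

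Members were named by a rule: those at listed genes, the 12 of best mean rank by −log10 p over the SEP3-AG lists, up to 6 called in all 4 SEP3 lists, up to 6 with an exact box and a preferred pair (0 found), and those on either side of the 200 bp limit. Genes are named by the nearest start, except that members at listed genes are named by the listed gene. Depth relative to the input was recovered from the 300 weakest summits per list, where 100% of pileups came out as whole reads within 0.03 at the chosen scale. Box search, matrix, pairs, distances and ranks were tested on simulated data. Alternatives comprised each library left out, matching at 100 and 300 bp, other windows, thresholds and promoter lengths, and, added after seeing the data, the exact-box share by tertile of SEP3-AG strength. Python 3 with numpy, pandas and scipy was used.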

Additional observations from a re-analysis of the deposited data

Results flagged for a closer look

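A single value stood apart from its group. The list of SEP3 replicate 4 held 8916 summits, and its gap to the next SEP3 list was 0.8292 of the range of the 4 lists, just above the limit used for a sample far from the others, which chance passes in about 1 of 20 groups. All 277 members were called in this list. The 50 members that remain without it are those in at least 3 SEP3 lists. Leaving it out therefore also makes the SEP3 rule stricter, and its own part in the members' box shares cannot be told apart.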

How the results depend on the processing

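Leaving out each library in turn gave 50 to 458 members, 79 to 682 genes with a member, an exact CArG box at 5.29% to 14.0%, a box with at most 1 change at 52.0% to 58.1%, a preferred pair at 0% to 3.37%, and 30.8% to 46% of members within 1000 bp upstream of a start. The values that moved most came without SEP3 replicate 4 (50 members, 79 genes, 14.0%, 0% and 46%), SEP3 replicate 3 (120 members, 183 genes, 10% with an exact box, 1.67% with a pair) and SEP3Δtet-AG replicate 1 (458 members, 682 genes, 40.0% upstream of a start). The lowest exact-box share and the highest pair share came without SEP3 replicate 2, and the lowest share with at most 1 change without SEP3-AG replicate 1. Requiring −log10 q of at least 10 for SEP3-AG and SEP3 left 130 members and 197 genes. A box window of 25 bp gave 3.25% with an exact box and 35.4% with at most 1 change, and a window of 100 bp gave 72.2% with at most 1 change. A threshold of 1 match per 500 bp gave a pair at 10.5% of members. Promoters of 500 and 2000 bp held 20.2% and 51.3%, and a gene region ending at the gene itself gave 207 genes. Matching at 100 or 300 bp, the best summit of each region, no SEP3Δtet-AG region near the summit, and exact boxes by tertile moved no value beyond its interval.

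The difference of 0.0516 in rank separation between SEP3-AG and SEP3 kept its sign in all 11 alternatives (0.0384 to 0.0862) and is given with no test. With a replicate block over pairs 1 to 3 it was 0.0633. Whether same-numbered libraries share a preparation is not known. The lists hold no read counts per site, so a weakly bound site and an unbound site cannot be told apart in SEP3Δtet-AG.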
